A study of Mus musculus with 2 samples.

Results

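A set of 9 genes that mark damage-associated microglia, Spp1, Igf1, Lgals3, Cst7, Itgax, Clec7a, Gpnmb, Cd9 and Cd63, were followed through single-cell 3′ RNA profiles of microglia that had repopulated the mouse brain for 3 days. They were taken by name, and all 9 of 9 were found among the 55450 gene identifiers of the count matrices. Mice of the C57BL/6 strain gave 1 library per genotype. The Hk2 cKO library came from Cx3cr1CreER::hk2 fl/fl mice, in which tamoxifen turns on a Cre recombinase made from the Cx3cr1 locus and hexokinase 2, an enzyme that starts glycolysis, is the floxed target. The Hk2 fl/fl library came from mice with the floxed gene that are described without the Cre. Both were sorted from brain as CD11b high and CD45 low cells at the same day and captured with the 10x 3′ chemistry, version 3. Tamoxifen was given as 100 µg by intraperitoneal injection at postnatal days 1 and 2 or as indicated, and the labels do not say whether the fl/fl mice received it, how microglia were depleted, how many animals went into a library or which exons are floxed. Because the driver sits in the Cx3cr1 locus, presence of Cre, change of that locus and loss of Hk2 cannot be told apart here.

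Damage-associated microglia were described in mouse models of amyloid deposition and neurodegeneration, where cells around plaques lower homeostatic receptors and raise genes of phagocytosis, lipid handling and lysosomes, in part through the receptor Trem2. A similar programme marks microglia of the early postnatal white matter. Among its products, osteopontin (Spp1), insulin-like growth factor 1 (Igf1), galectin-3 (Lgals3) and cystatin F (Cst7) are secreted or act in the endolysosomal compartment. CD11c (Itgax), dectin-1 (Clec7a) and GPNMB are surface or lysosomal membrane proteins, and CD9 and CD63 are tetraspanins, which organise membrane domains, endosomes and exosomes.

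The genes lie on 6 chromosomes of GRCm38, by the GENCODE M21 annotation. Spp1 spans chr5:104435118-104441050, Igf1 chr10:87858265-87937042, Lgals3 chr14:47367751-47386160, Cst7 chr2:150570415-150578944, Itgax chr7:128129547-128150657, Gpnmb chr6:49036546-49070929 and Cd63 chr10:128900989-128912822, all on the plus strand. On the minus strand are Clec7a, chr6:129461591-129472779, which that release lists as a polymorphic pseudogene, and Cd9, chr6:125460266-125494791. The UMIs are tags from the 3′ ends of transcripts and do not tell isoforms apart.

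The cKO library held 2607 barcodes with 32896996 unique molecular identifiers (UMIs) and the fl/fl library 3089 barcodes with 37476201, and 2 barcode sequences occurred in both. After filtering, 2016 of 2300 cKO cells (87.7%) and 2493 of 2824 fl/fl cells (88.3%) were microglia-like, with median depths of 12009.5 and 10169 UMIs. The clusters with most cKO microglia-like cells were 0, 1 and 2 (276, 262 and 252 cells) and those with most fl/fl cells 2, 4 and 6 (499, 367 and 358 cells). Hk2 measured 43.6 CPM (counts per 1e+06 UMIs) in cKO and 166.5 CPM in fl/fl microglia-like cells, and Cx3cr1 675 and 1303 CPM. Since the floxed exons are not given, the 3′ tags of Hk2 may lie outside the deleted part. The homeostatic genes P2ry12 (611 and 620 CPM) and Tmem119 (878 and 842 CPM) marked the class in both libraries. With 1 library per genotype no difference has a replicate check and no test was possible. Each range given in brackets is an exact 95% interval (Poisson for a level, Clopper-Pearson for a share) that holds counting error and no spread between animals. Differences are given as a log2 ratio, cKO divided by fl/fl, with 1 CPM added to both levels.

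Of the 7 genes that averaged at least 10 CPM, 5 were higher in cKO microglia-like cells with intervals that did not overlap, and 0 were lower in that way. Across the 7816 genes at that level, 10.8% were higher with intervals apart and 16.3% lower. Itgax and Cst7 were the 2 genes higher by at least 25%, a difference that 3.3% of those genes showed, and no member was lower by the same fold, against 2.47% of those genes. Of all 9, 6 were higher and 3 lower, whatever the size. Their median ratio was 0.24, which as the middle value of 9 is that of Cd9, and the median of all measured genes was -0.037. Igf1 and Gpnmb stayed under 10 CPM, and their intervals overlapped.

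**Figure D1:**
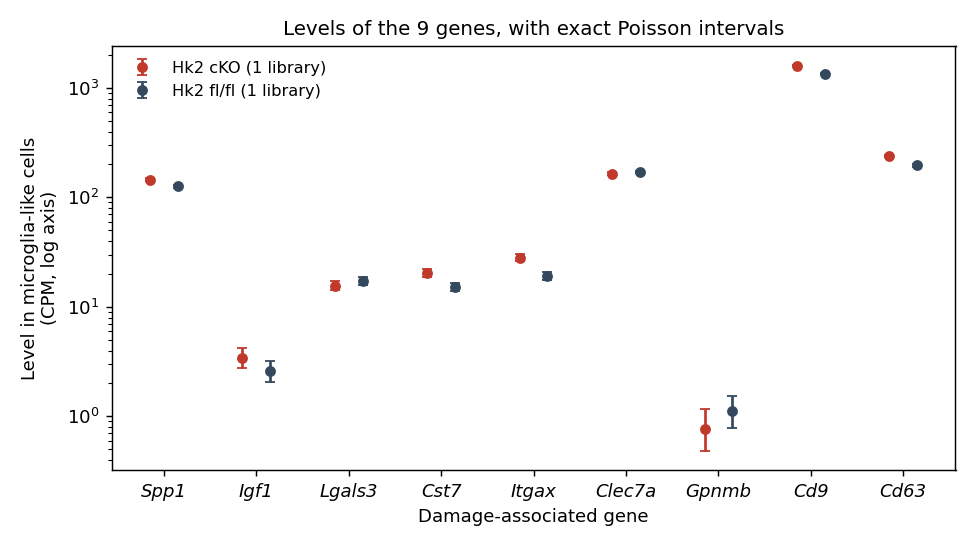
Level of each of the 9 genes in microglia-like cells in CPM on a log axis, with the Hk2 cKO library in red left of the Hk2 fl/fl library in dark blue and exact 95% Poisson intervals as bars. Levels run from 0.772 and 1.12 CPM for Gpnmb to 1599 and 1353 CPM for Cd9, and the intervals are apart for Spp1, Cst7, Itgax, Cd9 and Cd63.

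Among the surface receptors, Itgax differed by the widest ratio. Itgax, the integrin alpha chain of CD11c on phagocytes and dendritic cells, measured 28.2 CPM (26.3 to 30.3) in cKO and 19.3 CPM (17.8 to 20.8) in fl/fl cells, a log2 ratio of 0.53, or 1.44-fold. At an equal depth of 5000 UMIs per cell, an Itgax UMI was seen in 11.6% (10.2 to 13.2) of 1835 cKO and 8.76% (7.63 to 10.0) of 2271 fl/fl cells. No cell held more than 9 Itgax UMIs in the cKO or 6 in the fl/fl library, so no single cell carried the difference. Clec7a, the beta-glucan receptor dectin-1, stood at 164 CPM (159.6 to 169) against 171 CPM (167 to 175.5), with overlapping intervals and a ratio of -0.058. Gpnmb, a lysosomal and surface glycoprotein of lipid-laden macrophages, gave 22 UMIs in 17 cKO cells and 37 UMIs in 29 fl/fl cells, or 0.772 CPM (0.484 to 1.17) against 1.12 CPM (0.792 to 1.55).

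Of the secreted and endolysosomal products, Cst7 and Spp1 were higher, and Lgals3 and Igf1 did not differ beyond counting error. Cst7, an inhibitor of cathepsins C and L, measured 20.4 CPM (18.7 to 22.1) in cKO and 15.3 CPM (13.98 to 16.7) in fl/fl cells (ratio 0.39). Spp1, a phosphoprotein ligand of integrins and of CD44, measured 145.7 CPM (141 to 150.2) and 126.7 CPM (122.9 to 130.6) (ratio 0.20). Lgals3, a beta-galactoside-binding lectin that senses damaged lysosomes, stood at 15.6 CPM (14.2 to 17.2) and 17.2 CPM (15.8 to 18.7) (ratio -0.13).

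Some of these transcripts were held by few cells. The 1% of microglia-like cells richest in Spp1 carried 22.1% of all Spp1 UMIs in the cKO and 20.3% in the fl/fl library, and for Lgals3 the same share of cells carried 44.6% and 38.3%. A single cKO cell held 120 Spp1 UMIs among 63820 in all and a single fl/fl cell 96 among 3302. The median cell of either library held 0. Cd9, by comparison, was seen in 98.5% of cKO and 98.4% of fl/fl cells, and its richest 1% of cells held 4.41% and 4.97% of its UMIs. Averaged over per-cell CPM, in which every cell counts alike whatever its depth, Spp1 was level, with a ratio of -0.035, and Lgals3 turned to 0.13. Itgax, Cst7, Cd9 and Cd63 stayed higher by that measure, at 0.50, 0.58, 0.24 and 0.30. Such a mean gives the shallow fl/fl cell with 96 Spp1 UMIs the same weight as deeper cells. The part of that cell in the Spp1 ratio of -0.035 was not tested. With summed counts and without the richest cell of each library, the Spp1 ratio was 0.19.

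Igf1, a growth factor that postnatal white matter microglia supply to myelinating cells, showed how much 1 cell can weigh. The cKO library gave 98 Igf1 UMIs in 38 cells and the fl/fl library 85 UMIs in 57 cells, or 3.44 CPM (2.79 to 4.19) and 2.58 CPM (2.06 to 3.19). One cKO cell alone held 37 of the 98, and the next held 5. Without the richest cell of each library Igf1 stood at 2.14 CPM and 2.40 CPM, and its ratio turned to -0.12 instead of 0.31.

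That cKO cell carried most of the damage-associated genes together. Among its 14062 UMIs were 55 of Spp1, 30 of Clec7a, 23 of Lgals3, 52 of Cd9, 15 of Cd63 and 3 of Itgax beside the 37 of Igf1, and none of Cst7 or Gpnmb. Apoe, the lipid carrier that is high in the damage-associated state, gave 228 UMIs, or 16213.9 CPM within this cell against 677.5 CPM over all cKO microglia-like cells. Its homeostatic genes were low, with 1 UMI of P2ry12, none of Tmem119 and 2 of Cx3cr1, while the microglial gene Siglech gave 7. Transcripts of the monocyte gene Ly6c2, the border macrophage gene Mrc1 and the proliferation gene Mki67 were at 0 in it, while Ms4a7, a gene of border macrophages, gave 2, or 142 CPM against 2.74 CPM over the cKO microglia-like cells. This cell was singled out after its values were seen. The richest Igf1 cell of the fl/fl library, with 6 Igf1 UMIs among 20195, held 3 of Spp1, none of Lgals3 or Itgax, 8 of P2ry12 and 9 of Tmem119. Its Apoe was as high, with 355 UMIs.

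Both tetraspanins were higher in the cKO cells. Cd9, which partners integrins at the plasma membrane, measured 1599 CPM (1584 to 1613) in cKO and 1353 CPM (1341 to 1366) in fl/fl cells, a ratio of 0.24. Cd63, which marks late endosomes, lysosomes and exosomes, measured 240.5 CPM (235 to 246) and 196 CPM (191 to 201), a ratio of 0.29. At 5000 UMIs per cell, a Cd63 UMI was seen in 51.9% (49.6 to 54.2) of cKO and 48.4% (46.4 to 50.5) of fl/fl cells, whose intervals overlapped.

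The promoters of the 5 genes with intervals apart are shown because these genes were higher in the same library. Each line gives the 250 bases before the RefSeq transcription start in build GRCm38.p6, written 5′ to 3′ on the gene's own strand. The windows are chr7:128129300-128129549 (plus strand) for Itgax, chr2:150570165-150570414 (plus) for Cst7, chr5:104434861-104435110 (plus) for Spp1, the first of its 2 listed starts, chr6:125494761-125495010 (minus) for Cd9 and chr10:128909095-128909344 (plus) for Cd63. Capitals mark a match, on either strand, to 1 of 4 motifs.
Itgax: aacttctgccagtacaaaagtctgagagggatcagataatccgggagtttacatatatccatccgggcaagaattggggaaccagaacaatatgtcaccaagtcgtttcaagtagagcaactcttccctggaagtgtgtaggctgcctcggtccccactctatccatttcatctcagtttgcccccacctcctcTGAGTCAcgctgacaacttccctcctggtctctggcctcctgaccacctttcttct
Cst7: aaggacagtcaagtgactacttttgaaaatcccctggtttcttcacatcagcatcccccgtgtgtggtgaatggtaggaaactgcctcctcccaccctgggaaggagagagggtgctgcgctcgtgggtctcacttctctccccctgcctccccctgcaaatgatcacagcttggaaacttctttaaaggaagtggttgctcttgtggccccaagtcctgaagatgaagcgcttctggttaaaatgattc
Spp1: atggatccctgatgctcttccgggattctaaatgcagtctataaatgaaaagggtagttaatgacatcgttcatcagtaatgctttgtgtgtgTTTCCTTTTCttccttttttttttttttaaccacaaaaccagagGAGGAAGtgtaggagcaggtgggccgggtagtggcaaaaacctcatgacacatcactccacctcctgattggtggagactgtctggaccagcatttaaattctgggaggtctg
Cd9: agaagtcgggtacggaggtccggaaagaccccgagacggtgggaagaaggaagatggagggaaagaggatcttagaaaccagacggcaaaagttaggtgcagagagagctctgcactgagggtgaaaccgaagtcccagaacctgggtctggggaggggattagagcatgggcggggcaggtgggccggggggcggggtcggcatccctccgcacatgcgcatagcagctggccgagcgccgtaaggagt
Cd63: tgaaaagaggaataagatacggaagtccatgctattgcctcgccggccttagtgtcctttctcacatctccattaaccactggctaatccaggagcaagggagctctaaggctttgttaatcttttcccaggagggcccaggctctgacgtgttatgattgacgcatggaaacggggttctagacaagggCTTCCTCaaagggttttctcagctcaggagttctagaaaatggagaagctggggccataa
The motifs searched were CACGTG, the E-box read by the MiT/TFE factors of lysosomal genes, TGANTCA of AP-1, the core of the interferon-stimulated element (GAAA, any 2 bases, GAAA) and GAGGAAG, a core of the myeloid factor PU.1. Both strands were searched. No window of the 9 genes held the E-box, which 6.02% of 32817 mouse promoter windows of this length held. The AP-1 letters stood 56 bases before the start of Itgax and also in the window of Igf1, and in 6.75% of all windows. Spp1 alone held the interferon core, 157 bases before its start, against 2.97% of all windows, and a PU.1 core 113 bases before it. Cd63 and Igf1 held the PU.1 core as well, at 60 bases before the start in each, against 10.6% of all windows. Cst7 and Cd9 held none of the 4, and their guanine and cytosine content was 51.6% and 61.6%, where the median window had 52.4%. A match of letters is no measure of binding.

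Within the microglia-like class the genes did not go together. The clusters were made without the 9 genes and other damage-associated genes among the variable genes, so the levels below did not shape them. Cd9 was higher in the cKO part of all 11 clusters, each with intervals apart, with ratios from 0.14 in cluster 7 to 0.35 in cluster 11. Cd63 was higher in 9 of 11, in 6 of them with intervals apart, with ratios from -0.13 to 0.80. Itgax was higher in 9 of 11 as well, in 2 with intervals apart, and its lowest ratio was -0.10.

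Spp1 had no common direction. It was higher in 6 clusters and lower in 5, with intervals apart in 4 each way. Since few cells hold much of this transcript, each cluster was also described without the cell of each library that held most of its Spp1 UMIs. Spp1 was then higher in 7 clusters and lower in 4, with intervals apart in 3 and in 2. In cluster 1, led by the interferon-induced genes Ifit3, Rsad2 and Isg15, Spp1 stood at 179 CPM (166 to 192) in cKO and 90.7 CPM (72.8 to 112) in fl/fl cells. In cluster 7, led by the mitotic genes Ccnb2, Cenpa and Cdc20, it stood at 234 CPM (216 to 252) and 142 CPM (131 to 154). Without the richest cells these levels were 152 and 76.3 CPM in cluster 1 and 205 and 134.7 CPM in cluster 7, with intervals still apart. Cluster 0, with Arl4d and the immediate early gene Fosb among its leading genes, went the other way, at 49.5 CPM (42.4 to 57.5) against 87.4 CPM (69.7 to 108), and at 46.5 against 73.8 CPM without the richest cells. Cluster 9 changed direction. With every cell counted it stood at 179 CPM in cKO and 262 CPM in fl/fl cells, and without the richest at 164 and 106 CPM. A single fl/fl cell held 96 of the 161 fl/fl Spp1 UMIs there. When each cluster counts alike, the Spp1 means were 141 CPM in cKO and 133 CPM in fl/fl cells, a ratio of 0.086, and 127 and 108 CPM without the richest cells, a ratio of 0.22.

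**Figure D2:**
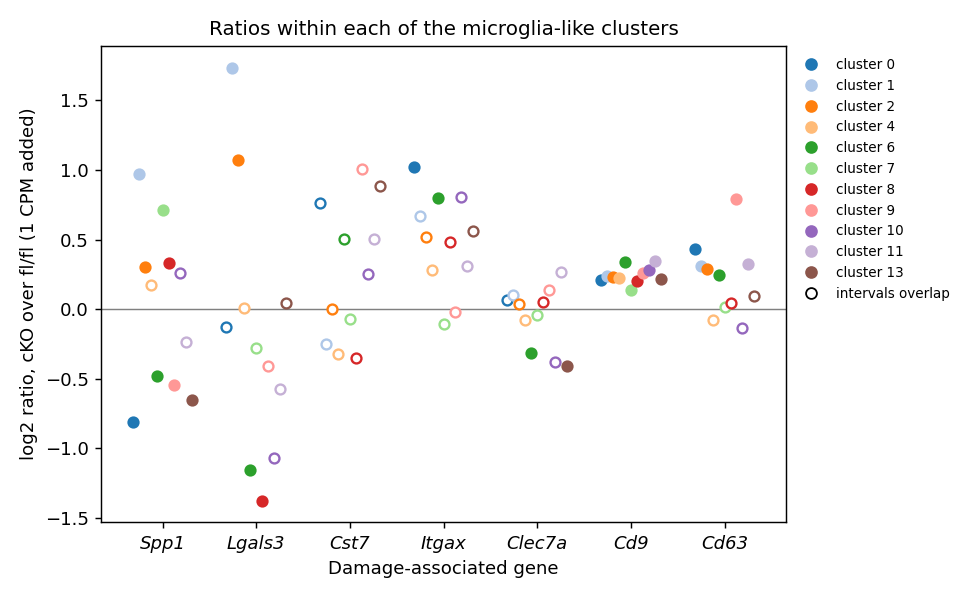
log2 ratio of cKO over fl/fl, after adding 1 CPM, for 7 genes in each of the 11 microglia-like clusters, which are told apart by colour, with open circles where the exact Poisson intervals of the 2 libraries overlap. All 11 Cd9 values lie between 0.14 and 0.35, while Spp1 runs from -0.81 to 0.97 and Lgals3 from -1.37 to 1.74. Every cell is counted, including 1 fl/fl cell with 96 Spp1 UMIs in cluster 9.

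Lgals3, Cst7 and Clec7a also differed in direction between clusters. Lgals3 was higher in 4 clusters and lower in 7, from -1.37 in cluster 8 (16 cKO and 70 fl/fl UMIs) to 1.74 in cluster 1 (80 and 5 UMIs), with intervals apart in 2 clusters each way. The Igf1-rich cKO cell described above held 23 of the 50 cKO Lgals3 UMIs in cluster 2. Another cKO cell held 24 of the 80 in cluster 1. It had 63820 UMIs in all, the same total and cluster as the cell with 120 Spp1 UMIs, where the median cKO cell had 12009.5. Without the richest cell of each cluster and library Lgals3 was again higher in 4 and lower in 7, and intervals were apart in 1 cluster with a higher level, cluster 1 (56 and 3 UMIs), and in 2 with a lower one, clusters 8 and 11. Cst7 was higher in 7 and lower in 4, and the intervals overlapped in every one. Clec7a was higher in 6 and lower in 5, and intervals were apart only in clusters 6 and 13, where it was lower in the cKO cells, at 163 against 203 CPM and at 130.2 against 173 CPM. Without the richest cells Clec7a was higher in 5 and lower in 6, with intervals apart in the same 2 clusters. Of the sparse genes, Igf1 was apart in cluster 2 alone, which holds the Igf1-rich cell, and Gpnmb in none.

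The levels themselves, apart from genotype, ordered the clusters differently for each gene. Spp1 was lowest in cluster 6 of both libraries, at 47.4 CPM in cKO and 66.6 CPM in fl/fl cells, and next to it in clusters 0 and 13 of both. It was highest in the mitotic cluster 7 of the cKO library (234 CPM) and, in the fl/fl library, in cluster 9, a shallow cluster led by Gm28438 and Mif (262 CPM). Without the richest cells the highest fl/fl level was that of cluster 11, at 159.5 CPM (139.9 to 181), and cluster 9 stood at 106 CPM. Cd63 ran almost the other way. Its lowest levels were in the dividing clusters 7, 8 and 10, from 120 to 136 CPM in cKO and from 119 to 149 CPM in fl/fl cells, and it reached 396 CPM in cKO and 333 CPM in fl/fl cells of cluster 6. Low Cd63 was not limited to the dividing clusters. Cluster 4, with Cxcl2 and Il1b among its leading genes, held Cd63 at 144 CPM (133 to 156) and 153 CPM (144 to 162). Both intervals overlapped those of cluster 10. Spp1 in cluster 4 stood at 173 and 153 CPM. In the cKO library clusters 0 and 6 did not differ in Cd63 beyond their intervals (374 to 416 and 371 to 421 CPM). Cd9 varied least among the 7 measured genes, with 1.40-fold between its highest and lowest cluster in the cKO library, against 4.93-fold for Spp1, 4.08-fold for Cst7 and 3.30-fold for Cd63. Cst7 was highest in clusters 0 and 9 of the cKO library, at 44.9 CPM (38.2 to 52.5) and 40.2 CPM (30.5 to 52.1). Lgals3 was highest in cluster 11, led by Apoe and mitochondrial RNA, at 46.6 CPM in cKO and 70.0 CPM in fl/fl cells.

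**Figure D3:**
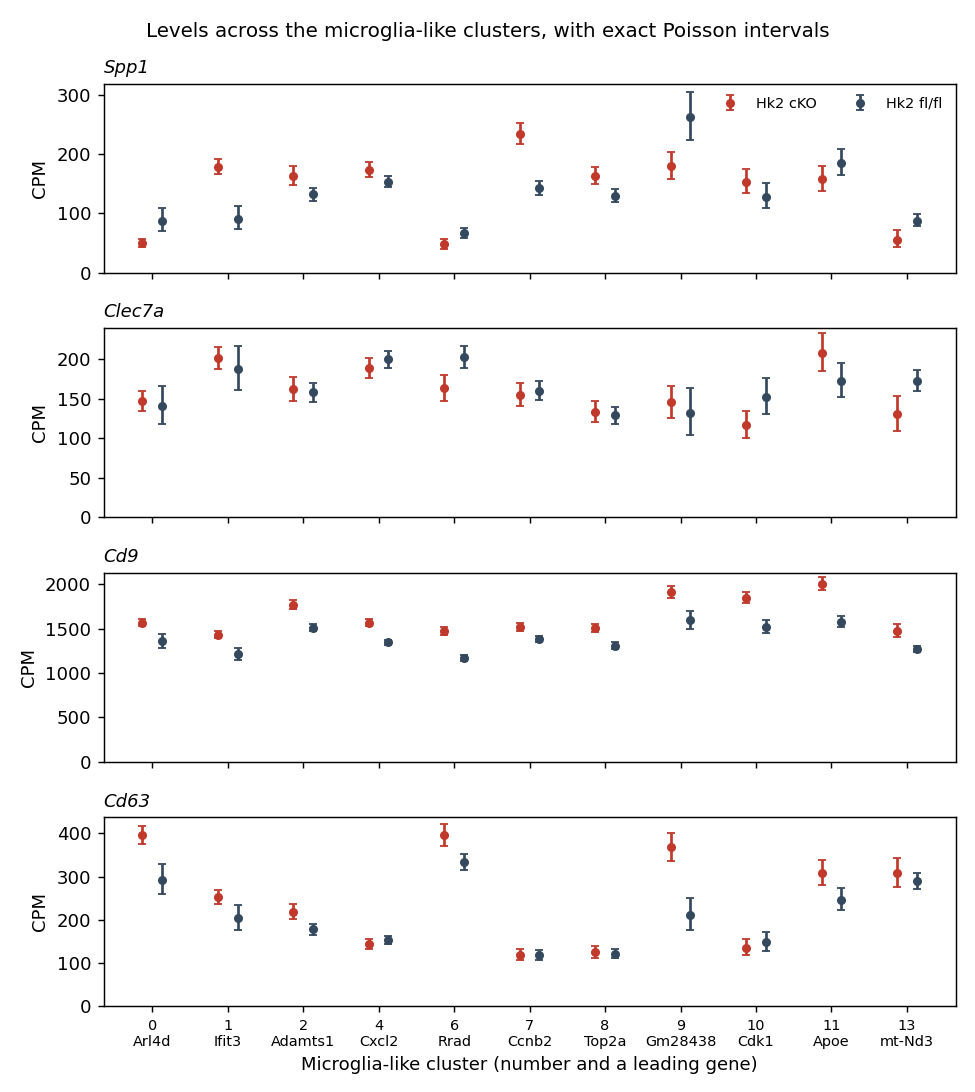
Levels in CPM of Spp1, Clec7a, Cd9 and Cd63 in the 11 microglia-like clusters, named by number and a leading gene, with the cKO library in red left of the fl/fl library in dark blue and exact 95% Poisson intervals as bars. Cd63 is low in the dividing clusters 7, 8 and 10 and in cluster 4, where Spp1 is not, and Cd9 lies higher in the cKO part of each cluster. In the fl/fl library 1 cell gives 96 of the 161 Spp1 UMIs of cluster 9.

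Across the 22 sums of cluster and library, Pearson correlations describe the same picture, whose points share 2 libraries, the depth of each cluster and the CPM scaling. Spp1 and Cd63 had an r of -0.58, Spp1 and Igf1 -0.58, Cst7 and Cd63 0.62, Igf1 and Cd63 0.60, and Spp1 and Lgals3 0.57. Within libraries (11 sums each) Spp1 and Cd63 stood at -0.66 in cKO and -0.45 in fl/fl, and Spp1 and Igf1 at -0.45 and -0.85, but Cst7 and Cd63 at 0.79 and 0.14. Without the richest cells the r of Spp1 and Cd63 was -0.66 over all sums, that of Spp1 and Igf1 -0.57 and that of Spp1 and Lgals3 0.60. Within libraries Spp1 and Igf1 then stood at -0.56 in cKO and -0.67 in fl/fl, and Spp1 and Cd63 at -0.68 and -0.72. Cst7 and Cd63 stood at 0.80 and 0.097. The Igf1 values rest on few UMIs, 98 and 85 with every cell counted. Among 2822 genes of at least 50 CPM, those most like Spp1 were Actr3, a subunit of the actin-nucleating Arp2/3 complex (0.88), and Mydgf, a secreted factor (0.86). Cd63 was most like C1qb, a complement subunit (0.94), and Itm2b (0.93). Itgax was most like Lgals3bp, a galectin-binding glycoprotein (0.77), and Lpcat2 (0.75), Cst7 most like the complement subunit C1qa (0.75), and Cd9 most like Vkorc1 (0.79). These are the highest values of a search through 2822 genes over 22 sums, so high values arise by selection. The sums pool both libraries, and differences between the libraries enter them. Itgax and Lgals3bp, for one, were both higher in cKO, with ratios of 0.53 and 1.19.

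Spp1 and Cd63 also stood apart between dividing and other cells. At 5000 UMIs per cell, 28.4% (26.4 to 30.6) of cKO and 35.4% (33.4 to 37.4) of fl/fl microglia-like cells had UMIs of at least 3 of 12 G2/M genes. In these cells Cd63 stood at 152 CPM (137 to 167) in cKO and 143 CPM (132 to 155) in fl/fl, and with fewer than 3 G2/M and 3 S-phase genes at 328.5 CPM (313 to 344) and 267 CPM (254 to 280). Spp1 went opposite, at 166 CPM (150.3 to 182) and 141 CPM (129.9 to 153) in the G2/M cells against 103 CPM (94.2 to 111) and 90.3 CPM (82.9 to 98.3) in the non-dividing ones. Cells with at least 3 S-phase genes and fewer than 3 G2/M genes (227 cKO and 269 fl/fl) held Cd63 at 198 and 158 CPM, Cd9 at 1700.4 and 1579.9 CPM and Spp1 at 172 CPM in both, and the intervals overlapped for each of the 3 genes. Cd9 was higher in the cKO part of the G2/M and of the non-dividing cells, by 0.22 and 0.26, with intervals apart. The Cd63 ratio was 0.085 among G2/M cells, with overlapping intervals, and 0.30 among non-dividing cells, with intervals apart. In the S-phase cells the ratios were 0.33 for Cd63 and 0.11 for Cd9. Many cells lay near these thresholds, with exactly 3 of the G2/M genes in 109 cKO and 191 fl/fl cells and exactly 2 in 187 and 314. Exactly 2 of the S-phase genes were seen in 266 and 354 cells. The cells called non-dividing here can thus include dividing ones. Whether the ratios differ between dividing and other cells was not tested.

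Interferon-response genes were far higher in the cKO library, and Spp1 was set out by this state. UMIs of at least 3 of 12 interferon genes were seen in 65.0% (62.8 to 67.2) of cKO and 25.4% (23.6 to 27.2) of fl/fl cells at 5000 UMIs, and all 12 genes were higher in cKO by at least 25%, with a median ratio of 1.56. Many cells lay near that threshold, with exactly 3 of the genes in 351 cKO and 335 fl/fl cells and exactly 2 in 410 and 750. Among interferon-positive cells Spp1 stood at 138 CPM (129 to 148) in 1193 cKO and 109 CPM (97.0 to 121) in 576 fl/fl cells. Among cells with fewer than 3 such genes it stood at 112 CPM (101 to 124) in 642 cKO and 121 CPM (114 to 129) in 1695 fl/fl cells, a ratio of -0.11 with overlapping intervals. The intervals of interferon-positive and other cells were thus apart within the cKO library and overlapped within the fl/fl library. In the 53 cKO and 254 fl/fl cells with none of the 12 genes, Spp1 stood at 52.8 CPM (28.9 to 88.6) and 94.5 CPM (78.3 to 113), a ratio of -0.83 with overlapping intervals. Whether the Spp1 ratio differs between these states was not tested. Cd9 and Cd63 were higher with intervals apart in both kinds of cell, by 0.25 and 0.25 among the interferon-positive and by 0.26 and 0.40 among the others. Itgax was higher in both, by 0.29 and 0.48, with overlapping intervals. In the cells with none of the 12 genes Itgax went the other way on few UMIs, 2 in cKO and 27 in fl/fl. That was 7.55 against 21.3 CPM, again with overlapping intervals. Clec7a was lower in cKO cells with fewer than 3 interferon genes, at 148 CPM (135 to 162) against 172 CPM (163 to 181), and stood at 158 and 152 CPM in interferon-positive cells, with overlapping intervals.

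The libraries also differed in a pair of mitochondrial sequences, mt-Nd3 and its nuclear copy Gm28438, and some ratios moved with it. UMIs of Gm28438 without mt-Nd3 were seen in 1713 cKO and 495 fl/fl microglia-like cells, and mt-Nd3 without Gm28438 in 4 and 1219. With cells of the first kind in both libraries, Spp1 stood at 149 CPM (144 to 153.6) in cKO and 155 CPM (145.5 to 166) in fl/fl, a ratio of -0.062. The Cd9 ratio was 0.075, with intervals still apart (1596 to 1627 and 1499 to 1562 CPM). Itgax (0.40) and Cd63 (0.52) had intervals apart there as well. The Cst7 ratio was 0.20, with overlapping intervals of 18.5 to 22.0 and 14.2 to 21.1 CPM. Lgals3 was then lower with intervals apart, at a ratio of -0.76. Within the fl/fl library alone, cells with Gm28438 and cells with mt-Nd3 differed with intervals apart in Spp1 (155 and 116 CPM), Lgals3 (25.4 and 10.7 CPM), Cd9 (1529.8 and 1322 CPM) and Cd63 (164 and 203 CPM). The part of this split in the differences between genotypes was not tested.

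In single cells few of the 9 genes were detected together, and several of them were rarely detected at all. After thinning to 5000 UMIs, Cst7 was seen in 7.90% of cKO and 6.96% of fl/fl cells. Lgals3 was seen in 4.14% and 4.98%, and Igf1 in 0.817% and 1.14%. At such shares few cells hold many of the genes even if each is spread without regard to the others. Whether they were together less often than that was not tested. Cd9 and Cd63 were left out of the count per cell beforehand as abundant genes. At 5000 UMIs Cd9 was seen in 99.1% of cKO and 98.8% of fl/fl cells, but Cd63 in only 51.9% and 48.4%. Clec7a, 1 of the 7 genes kept, was seen in 46.0% and 49.2%. At least 2 of these 7 genes were seen in 26.9% (24.9 to 29.0) of cKO and 27.4% (25.6 to 29.3) of fl/fl cells at this depth. Endothelial-like cells reached this mark in 12 of 66 cKO and 6 of 36 fl/fl cells (median depths 8442 and 13790.0 UMIs, against 12860.0 and 10953 for the microglia-like cells compared). They also held much microglial RNA, with P2ry12, Tmem119, Fcrls and Siglech summing to 1867 CPM in cKO and 1915 CPM in fl/fl cells, where microglia-like cells had 2752 and 2698 CPM. At least 3 of the 7 were seen in 4.80% and 4.05% of microglia-like cells, and the mean was 1.03 of 7 in both libraries. Without thinning, the most that any cell held was 8 of the 9 genes, in 2 of 2016 cKO and 4 of 2493 fl/fl cells.

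**Figure D4:**
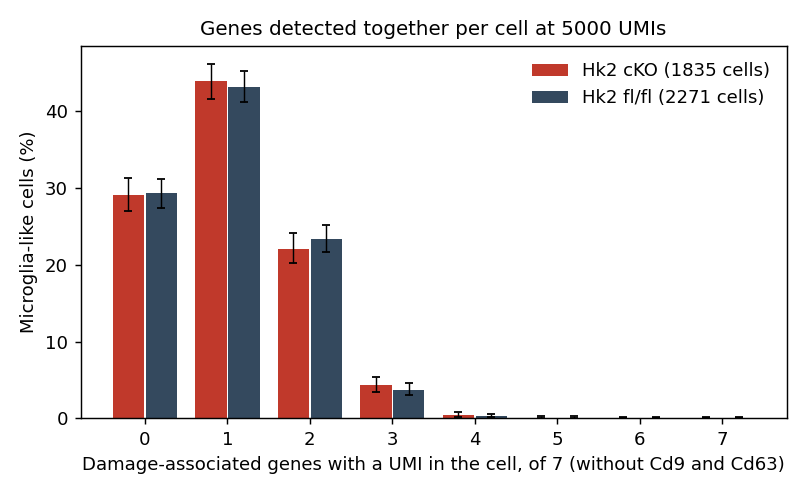
Share of microglia-like cells, in percent, by the number of the 7 damage-associated genes other than Cd9 and Cd63 with a UMI after thinning to 5000 UMIs, with cKO bars in red left of fl/fl bars in dark blue and exact 95% Clopper-Pearson intervals. Most cells of both libraries hold 0 or 1 of the 7 genes, and 26.9% of cKO and 27.4% of fl/fl cells hold at least 2.

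Pairs of the genes were only weakly related across cells. Spearman's rho at 5000 UMIs had a median of 0.014 over 26 pairs in the cKO and 0.013 over 32 pairs in the fl/fl library. These medians leave out some computed pairs, such as Igf1 and Cd63 in cKO cells (0.080). The highest was that of Cd9 and Spp1, at 0.18 and 0.16. In counts this sparse such values are a description of the libraries only. Cd63 was seen in 69.7% of cKO cells with a Lgals3 UMI and 51.2% of those without, with intervals apart, and in 54.0% and 48.1% of fl/fl cells, where they overlapped. Cst7 and Cd63 were paired in both libraries, with Cd63 in 64.8% of cKO and 58.9% of fl/fl cells that held Cst7, against 50.8% and 47.7% of those that did not.

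Cells with at least 5 Spp1 UMIs of 5000 held a large part of this transcript. There were 37 (2.02%, 1.42 to 2.77) in the cKO and 31 (1.37%, 0.929 to 1.93) in the fl/fl library, holding 27.2% and 22.5% of the Spp1 UMIs, and 12 and 8 of them lay exactly at the threshold. Their Cd9 level was 2557 and 2155 CPM, against 1505 and 1313 CPM in cells without a Spp1 UMI, and their Cd63 level 389 and 523 CPM against 279 and 220.5 CPM. Apoe stood at 1373 and 1277 CPM against 895 and 664 CPM. The Igf1-rich cKO cell is 1 of the 37. Without it Apoe in the cKO cells stood at 950.0 CPM (813 to 1104) and Cd63 at 361 CPM (279 to 460), and both intervals then overlapped those of cKO cells without Spp1, at 872 to 919 and 266 to 292 CPM. Neither level followed the order of Spp1, since cells with 1 to 4 Spp1 UMIs (557 and 669) held less of both than cells without, with Cd63 at 217 and 171 CPM and Apoe at 552 and 375 CPM. In the cells with at least 5 Spp1 UMIs the homeostatic P2ry12 was lower than in cells without, at 346 and 394 CPM against 689 and 667 CPM, with intervals apart. Those of Tmem119 overlapped, at 800.0 and 877 CPM against 895 and 834 CPM. Itgax gave 5 and 3 UMIs and Cst7 5 and 9 in these cells, too few to compare. The osteoclast gene Ctsk, the monocyte gene Ccr2 and the border macrophage gene Mrc1 were at 0 in them in both libraries. The osteoclast gene Acp5 gave 2 UMIs in the cKO cells (10.8 CPM, against 2.10 CPM in cKO cells without Spp1) and 0 in the fl/fl cells, and the neutrophil gene S100a8 gave 0 and 1. Their part in these levels was not tested.

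Several of the genes were higher in other sorted cells than in microglia-like cells. Lgals3 stood at 2504 CPM (2309 to 2711) in 34 cKO and 2016 CPM (1917 to 2119) in 79 fl/fl monocyte-like cells, and at 625 and 545 CPM in neutrophil-like cells. An unnamed cluster led by the MHC class II genes H2-Eb1 and Cd74, in which Cd209a and Ccr2 were also among the leading genes, held Lgals3 at 909 and 763 CPM and Itgax at 64.0 and 65.8 CPM. Osteoclast-type cells (23 cKO and 16 fl/fl), led by Acp5, Ctsk and Mmp9, held Cd63 at 1245 and 889 CPM, Lgals3 at 1000.4 and 591 CPM, Spp1 at 294 and 203 CPM and Cst7 at 61.2 and 58.6 CPM. Osteopontin, CD63 and cystatin F are known products of osteoclasts and macrophages. The neutrophil gene S100a8, which microglia should lack, gave a UMI in 13.9% of cKO and 15.3% of fl/fl microglia-like cells and stood at 23.3 and 14.1 CPM there. The part of RNA from these other cells in the low Lgals3 level of microglia-like cells was not tested.

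**Figure D5:**
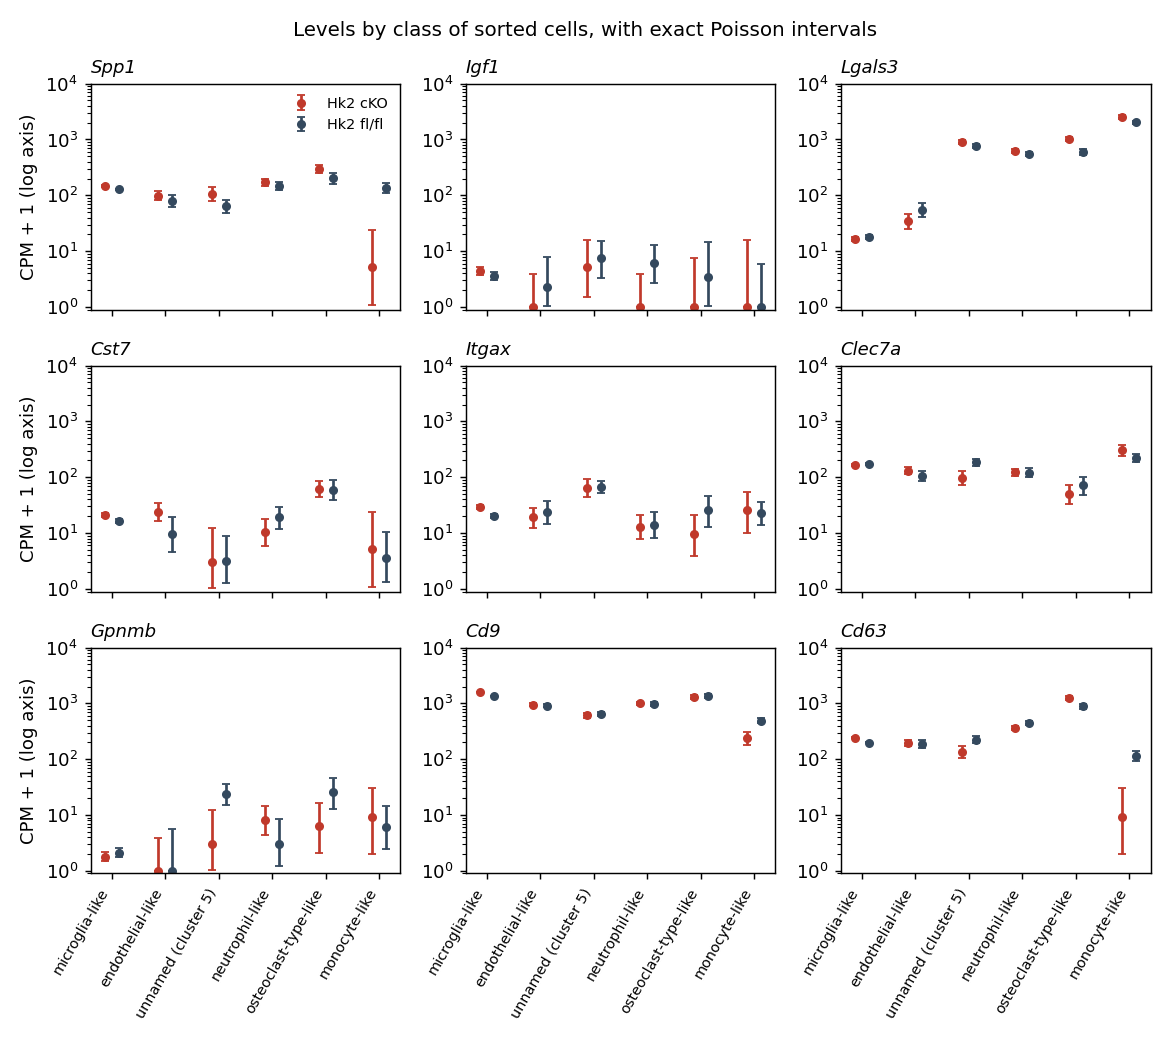
Levels of the 9 genes by class of sorted cells, as CPM plus 1 on a log axis, with the cKO library in red left of the fl/fl library in dark blue and exact 95% Poisson intervals as bars. Lgals3 runs from 15.6 and 17.2 CPM in microglia-like to 2504 and 2016 CPM in monocyte-like cells, whereas Clec7a stands at 164 and 171 CPM and at 304 and 221 CPM.

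Spp1 and Cd63 were nearly absent from the cKO monocyte-like cells, which held little microglial RNA. Spp1 gave 1 UMI and Cd63 2 UMIs in the cKO cells, against 104 and 88 UMIs in the fl/fl cells, but the 4 microglial markers also summed to 65.8 CPM in the cKO against 1083 CPM in the fl/fl cells. With cells that carried no UMI of these markers (29 cKO and 43 fl/fl), Spp1 gave 0 and 6 UMIs, Cd63 1 and 2, Cd9 52 and 19, Clec7a 65 and 81 and Lgals3 506 and 752. Among endothelial-like cells with no UMI of those markers (19 cKO and 7 fl/fl cells), Cd9 gave 12 and 3 UMIs and Cd63 4 and 0, and each of the other 7 genes gave 0 or 1.

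Other genes of the damage-associated programme were mostly higher in cKO, where 38.9% of all measured genes were. Of 24 measured genes of the wider programme 16 were higher in cKO, 6 by at least 25% and 1 lower by that fold, with a median of 0.17. Csf1, a growth factor for microglia and macrophages, stood at 48.9 CPM (46.4 to 51.6) in cKO and 31.3 CPM (29.4 to 33.3) in fl/fl cells, and B2m, the class I light chain that interferon also induces, at 2556 and 1806 CPM. Cd44, the hyaluronan receptor that also binds osteopontin, was lower at 27.2 CPM (25.3 to 29.2) against 44.1 CPM (41.9 to 46.4), and the abundant ferritin chain Fth1 was at 7236 and 7983 CPM. Homeostatic genes that fall in this state had 10 of 16 higher and a median of 0.023. The widest ratio among them was that of Cx3cr1 (-0.95), whose locus carries the driver.

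The receptors and partners of the 9 products were described from their own lists. For comparison, 38.9% of all measured genes were higher, 3.3% by at least 25%, and 2.47% were lower by the same fold. Osteopontin receptors had 4 of 8 genes higher and a median of -0.012, with Itga4 (12.3 and 19.8 CPM) lower beside Cd44, and Itgb5 at 1099.7 and 1151 CPM. Of the integrins that share a beta chain with CD11c, Itgam, the alpha chain of CD11b used for the sort, stood at 472 and 416 CPM (ratio 0.18) and the shared chain Itgb2 at 381 and 356 CPM (0.10). In the dectin-1 pathway 4 of 10 genes were higher and none passed 25% either way, with Card9, its adaptor, at 29.6 and 25.8 CPM. Among the galectins, Lgals9 stood at 257 against 199 CPM and Lgals1 at 191 against 240.5 CPM. Lgals3bp, which binds galectins and is not one itself, was kept in their list. It stood at 379 CPM (372 to 387) against 166 CPM (162 to 171).

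The list of cystatins and their target proteases had 9 measured genes, all higher in cKO, where 38.9% of all measured genes were, with a median of 0.12. By at least 25% 1 of the 9 was higher, against 3.3% of all measured genes, and 4 lay near level, with ratios of 0.011 for Cst3, 0.013 for the legumain gene Lgmn, whose intervals overlapped, 0.035 for Ctsc and 0.043 for Ctsh. Ctsl, a lysosomal protease that cystatin F can inhibit, stood at 871 CPM (860.1 to 882) in cKO and 657 CPM (648 to 666) in fl/fl cells, Ctss at 4173 and 3455 CPM, and Cst3, which encodes cystatin C, at 10647 and 10564 CPM. Of the other tetraspanins Cd81 (2996 and 2712 CPM) and Cd37 (292 and 265 CPM) were higher by 0.14 each and Tspan13 (42.5 and 52.6 CPM) was lower. The IGF list had 4 measured genes, of which Irs2, an adaptor of the insulin and IGF receptors, was higher (26.8 and 20.2 CPM) and the binding protein gene Igfbp4 lower (71.6 and 90.2 CPM). None of the 3 measured MiT/TFE factors, which drive lysosomal genes, was higher, against 38.9% of all measured genes. Tfe3 stood at 108 and 109.7 CPM.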

How the data were processed

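Cells sorted from mouse brain were captured with 10x 3′ chemistry, 1 library per genotype. The authors deposited raw UMI counts per gene and barcode, made with Cell Ranger 3.1.0 on GRCm38, per the submitters' processing notes. All 55450 identifiers matched GENCODE M21. Coordinates are its GRCm38 positions or RefSeq's.

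Barcodes under 500 detected genes or over 10% mitochondrial UMIs were dropped, which left 2301 cKO and 2826 fl/fl. Scrublet removed only 1 and 2 cells, a sign that it failed, so most doublets are still in. Cells were clustered in scanpy 1.11.5 under Python 3.11.15 (2000 variable genes less 12 damage-associated genes, 30 components, 15 neighbours, Leiden resolution 0.8) and named by markers, with naming thresholds set after clusters were seen. Clusters count where each library has at least 50 cells. Counts were summed over microglia-like cells (28501282 cKO and 32907430 fl/fl UMIs) and scaled to CPM. Genes that average at least 10 CPM count as measured. Cells were thinned without replacement to 5000 UMIs for shares, which left out 181 cKO and 222 fl/fl cells. The sum, interval and thinning steps were checked on simulated data.

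Beside the members, the text names the most abundant gene of each list and up to 3 with the widest ratios among those of at least 10 CPM with intervals apart, the 2 genes most like each member, Hk2, Cx3cr1 and free RNA markers. The members and lists were chosen with earlier results of these data known. Alternatives included TMM scaling (edgeR 4.0.16 in R 4.3.3), other filters, resolutions and cell subsets.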

Additional observations from a re-analysis of the deposited data

How the results depend on the processing

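No paired analysis was possible because each genotype has 1 library and no replicate numbers. The cause of the changes below was not tested unless named. The median ratio of 0.24 kept its sign under 15 of 16 alternatives. It was 0.28 at resolution 0.4, 0.19 with 1000 genes and 5% mitochondrial UMIs, 0.15 as a mean of per-cell CPM, 0.19 with 5 CPM added, 0.28 when cKO cells with only Gm28438 were set against fl/fl cells that had only mt-Nd3, and -0.062 with Gm28438 alone in both. Members higher by at least 25% numbered 4 at resolution 0.4, where 23 cKO and 16 fl/fl osteoclast-type cells joined the microglia-like class, 4 for Gm28438 alone against mt-Nd3 alone, and 1 with 5 CPM added. Spp1 turned to -0.11 in cells with under 3 interferon genes, -0.062 with Gm28438 alone in both and -0.035 as a per-cell mean. That mean gives the shallow fl/fl cell with 96 Spp1 UMIs the same weight as deeper cells. Itgax, Cst7, Cd9 and Cd63 were higher under all 17 alternatives each. The share with at least 2 of 7 genes differed by -0.51 percentage points between cKO and fl/fl and by 3.90 without thinning, where the cKO cells are deeper. Leaving out the cell richest in a gene, in the library or in each cluster, was chosen after seeing the data. In the library it turned the sign of Igf1 and of no other member. By cluster it took Cd63 from 9 higher of 11 to 7 and Itgax from 9 to 10. It also took Spp1 from 6 higher to 7, Clec7a from 6 to 5 and Gpnmb from 5 to 3. Depth limits Igf1 and Gpnmb, with under 100 UMIs each per library, and Clopper-Pearson and Poisson intervals hold no spread between animals.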
